A study of Homo sapiens with 18 samples.

Results

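The genes of hyaluronan synthesis, breakdown and binding described here are 9 of the 60603 genes in each count table, namely HAS1, HAS2, HAS3, HYAL1, HYAL2, HYAL3, CEMIP, CD44 and VCAN. They were chosen by their role in hyaluronan metabolism, with earlier results of these libraries known, among them the fall of HAS2 in the transient libraries, so the HAS2 values of those libraries are given as a description with no test. Hyaluronan is a long unbranched sugar polymer of the extracellular matrix. The synthases HAS1, HAS2 and HAS3 make it at the cell membrane from UDP-sugars, while hyaluronidases (HYAL1, HYAL2, HYAL3) and CEMIP, a protein needed for hyaluronan depolymerisation, break it down. CD44 is the main cell surface receptor of hyaluronan and a marker used for breast cancer stem cells, and VCAN (versican) is a large proteoglycan that binds hyaluronan in the matrix.

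mRNA had been sequenced from MDA-MB-231, a triple-negative breast cancer cell line, in 9 conditions with 2 libraries each. The transient libraries came from control cells, from control cells given 0.6 µM doxorubicin, a DNA-damaging drug, for 48 h, and from cells labelled as carrying transiently overexpressed Flag-ZMYND8 with the same drug treatment. The other 12 libraries came from stable lines selected after lentiviral delivery of a doxycycline-inducible cassette for GFP or for Flag-ZMYND8, each with 250 ng/mL doxycycline and either no doxorubicin (0 h) or 0.6 µM doxorubicin for 6 h or 48 h; they are called GFP cells and ZMYND8 cells here. ZMYND8 is a putative chromatin reader, and the study asked how its overexpression alters the response of these cells to doxorubicin. Since each cassette was measured in 1 line, the cassette and any other difference between the lines cannot be told apart, and drug exposure cannot be told apart from time in culture.

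CD44 is the one member for which the study designed oligonucleotides, and they are shown because they do not read the same part of the gene as the counts do. The qRT-PCR pair lies in 2 exons of CD44 on chromosome 11 (hg38), the forward primer at chr11:35206167-35206188 on the plus strand and the reverse primer at chr11:35208123-35208144 on the minus strand. Both sites occur together in 5 of the 38 CD44 transcripts of GENCODE release 44, where they bound a product of 117 bases, whereas the counts sum all exons of the gene. The ChIP pair bounds 88 bases at chr11:35139465-35139552, which starts 294 bases downstream of the RefSeq start of CD44 and is intronic in the annotation of the files.
qRT-PCR forward: ggacagttcctggactgatttc
qRT-PCR reverse: gcagtaggctgaagcgttatac
ChIP-qPCR forward: ctggagtcaagtgagctgtc
ChIP-qPCR reverse: acagacacattctccaacgg

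The promoters of CEMIP, CD44, HYAL2 and HYAL3 are shown because these 4 genes were lower in ZMYND8 cells than in GFP cells at every time point. They are RefSeq windows on GRCh38.p14 from 250 bases before to 50 bases after the start, read 5′ to 3′ on the strand of the gene, at chr15:80779120-80779419 (plus strand) for CEMIP, chr11:35138921-35139220 (plus strand) for CD44, chr3:50322696-50322995 (minus strand) for HYAL2 and chr3:50299356-50299655 (minus strand) for HYAL3, the window at the gene's outer end of 2 listed. Capitals mark matches on either strand to the TATA box, spelled TATAAA, and to the GC box, spelled GGGCGG. The CCAAT motif and the AP-1 motif, spelled TGANTCA, were also searched and have no match in these 4 windows. The HYAL2 window has no match to any of the motifs.
CEMIP promoter: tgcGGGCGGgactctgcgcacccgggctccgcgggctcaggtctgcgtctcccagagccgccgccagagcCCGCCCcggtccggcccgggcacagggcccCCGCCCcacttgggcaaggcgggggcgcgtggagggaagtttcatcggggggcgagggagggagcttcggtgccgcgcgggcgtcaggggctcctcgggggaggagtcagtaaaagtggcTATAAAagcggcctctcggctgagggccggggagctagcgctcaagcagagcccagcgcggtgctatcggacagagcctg
CD44 promoter: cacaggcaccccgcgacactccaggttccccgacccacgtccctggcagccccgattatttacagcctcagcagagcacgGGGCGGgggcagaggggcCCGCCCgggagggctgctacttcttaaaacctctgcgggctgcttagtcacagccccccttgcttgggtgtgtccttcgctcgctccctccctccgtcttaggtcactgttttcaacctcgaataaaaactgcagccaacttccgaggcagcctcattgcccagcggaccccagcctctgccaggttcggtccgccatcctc
HYAL2 promoter: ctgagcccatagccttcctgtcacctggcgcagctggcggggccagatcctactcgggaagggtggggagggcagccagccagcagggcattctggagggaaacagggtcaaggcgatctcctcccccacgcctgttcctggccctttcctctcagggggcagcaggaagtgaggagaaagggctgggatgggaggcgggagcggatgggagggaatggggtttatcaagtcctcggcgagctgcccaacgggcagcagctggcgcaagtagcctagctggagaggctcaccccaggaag
HYAL3 promoter: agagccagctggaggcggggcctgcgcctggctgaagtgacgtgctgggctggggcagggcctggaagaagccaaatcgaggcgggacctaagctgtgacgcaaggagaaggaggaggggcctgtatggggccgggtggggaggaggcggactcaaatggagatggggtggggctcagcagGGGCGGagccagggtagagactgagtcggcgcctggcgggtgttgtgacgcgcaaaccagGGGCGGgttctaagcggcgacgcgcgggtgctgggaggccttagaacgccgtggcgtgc

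GGGCGG was present in 8 of the 9 windows listed for 8 members (88.9%), all but that of HYAL2, against 45.0% of all 35116 windows in the table. TATAAA was present in 1 of the 9, that of CEMIP, 30 bases before the start, against 11.5% of all windows. CCAAT and TGANTCA, in 34.6% and 7.71% of all windows, were in none of the 9. A match is a description of the letters only. The promoter of HAS2 was not analysed here.

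Before the results, some properties of the libraries have to be stated. The total count was 5729294 to 24713822 in the transient libraries, where the second doxorubicin library held the most, and 18300628 to 23724398 in the inducible ones. Replicate 2 of doxorubicin and replicate 2 of the ZMYND8 label differed by a chi-square of only 1.39 per degree of freedom over genes, against 9.71 to 55.6 in the other 14 transient pairs. ZMYND8 itself stood at 209 ± 14.5 CPM (the count over the TMM-scaled library total, in the usual unit; SD, n = 2) in the control libraries, 142 ± 24.7 under the ZMYND8 label and 152 ± 42.0 after the drug alone, so it was not higher under that label. In ZMYND8 cells it stood at 924 ± 3.75, 864 ± 48.7 and 963 ± 54.2 CPM at 0, 6 and 48 h, against 209 ± 0.778, 96.6 ± 3.95 and 140 ± 1.48 CPM in GFP cells. For antisense genes nested in exons of an expressed gene, the density of counts was 1.46 to 1.65 times that of the sense gene in the 6 transient libraries (median over 386 to 418 gene pairs) and 0.0632 to 0.102 times in the 12 inducible ones. The transient counts therefore did not separate the strands, and a member there can hold reads of a gene on the other strand. VIM, at 1922 to 4494 CPM, and KRT18, at 296 to 836 CPM, were high in all 18 libraries, as the label of the cell line implies. ESR1 stayed at or below 0.691 CPM and PGR at or below 0.799 CPM. EPCAM (6.89 to 44.5 CPM) and ERBB2 (73.2 to 166 CPM), also expected to be low, were not near 0. CDH1, expected to be low as well, reached 21.6 CPM in the inducible and 9.52 CPM in the transient libraries. It was 5.79-fold higher in untreated ZMYND8 cells than in untreated GFP cells. By 48 h of doxorubicin it was 14.7-fold higher in GFP cells and 4.94-fold higher in ZMYND8 cells. In such bulk RNA, fewer cells making a transcript and less transcript per cell cannot be told apart.

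Several members share exon bases with neighbours. HAS3 (ENSG00000103044.11, chromosome 16, 69105653 to 69118719, plus strand) shares 365 exon bases (7.02%) with CHTF8 and DERPC on the other strand. HAS2 (ENSG00000170961.7, chromosome 8, 121612116 to 121641440, minus strand) shares 251 bases with HAS2-AS1, VCAN (ENSG00000038427.16, chromosome 5, 83471618 to 83582303, plus strand) shares 453 bases with VCAN-AS1, and CD44 (ENSG00000026508.18, chromosome 11, 35138870 to 35232402, plus strand) shares 84 bases with CD44-AS1. CEMIP (ENSG00000103888.17, chromosome 15, 80779343 to 80951776, plus strand) shares 224 bases with MESD. HYAL3 (ENSG00000186792.17, 50292831 to 50299405), HYAL1 (ENSG00000114378.17, 50299890 to 50312381) and HYAL2 (ENSG00000068001.14, 50317790 to 50322782) lie side by side on the minus strand of chromosome 3. Of these, HYAL3 shares 11.79% of its exon bases with NAA80 and HYAL2 11.51% with TUSC2 on the same strand, where a read that fits both genes is not counted for either. HAS1 (ENSG00000105509.10, chromosome 19, 51713112 to 51723994, minus strand) and HYAL1 share exon bases with no other gene. After the filter on low counts, 8 members were tested in the inducible libraries and 7 in the transient ones. HAS1 was tested in neither, with 0 to 6 counts in each inducible library and 0 to 15 in each transient one, and VCAN was not tested in the transient ones.

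Doxorubicin changed most tested members in both lines by 48 h, with the same directions in each. A member counted as called where edgeR (quasi-likelihood test) gave an adjusted p no higher than 0.05 over all genes tested. After 6 h, 4 of 8 tested members were called in GFP cells, where 47.9% of all 18801 genes were called, and 4 in ZMYND8 cells, where 40.8% were. After 48 h, 7 were called in GFP cells (64.2% of all genes) and 7 in ZMYND8 cells (62.3%). HAS3, HYAL3 and VCAN were the 3 that rose and HAS2, HYAL2, CEMIP and CD44 the 4 that fell, in either line, and HYAL1 was not called. Since most genes changed by 48 h, these counts do not set the members apart. The median log2 fold change of the 8 members at 48 h was 0.02 in GFP cells and 0.03 in ZMYND8 cells, against 0.03 and 0.05 over all genes tested. Scaling to total counts instead moved the median of all genes to 0.27 and 0.25 at 48 h, so small 48 h changes depend on the scaling.

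**Figure D1:**
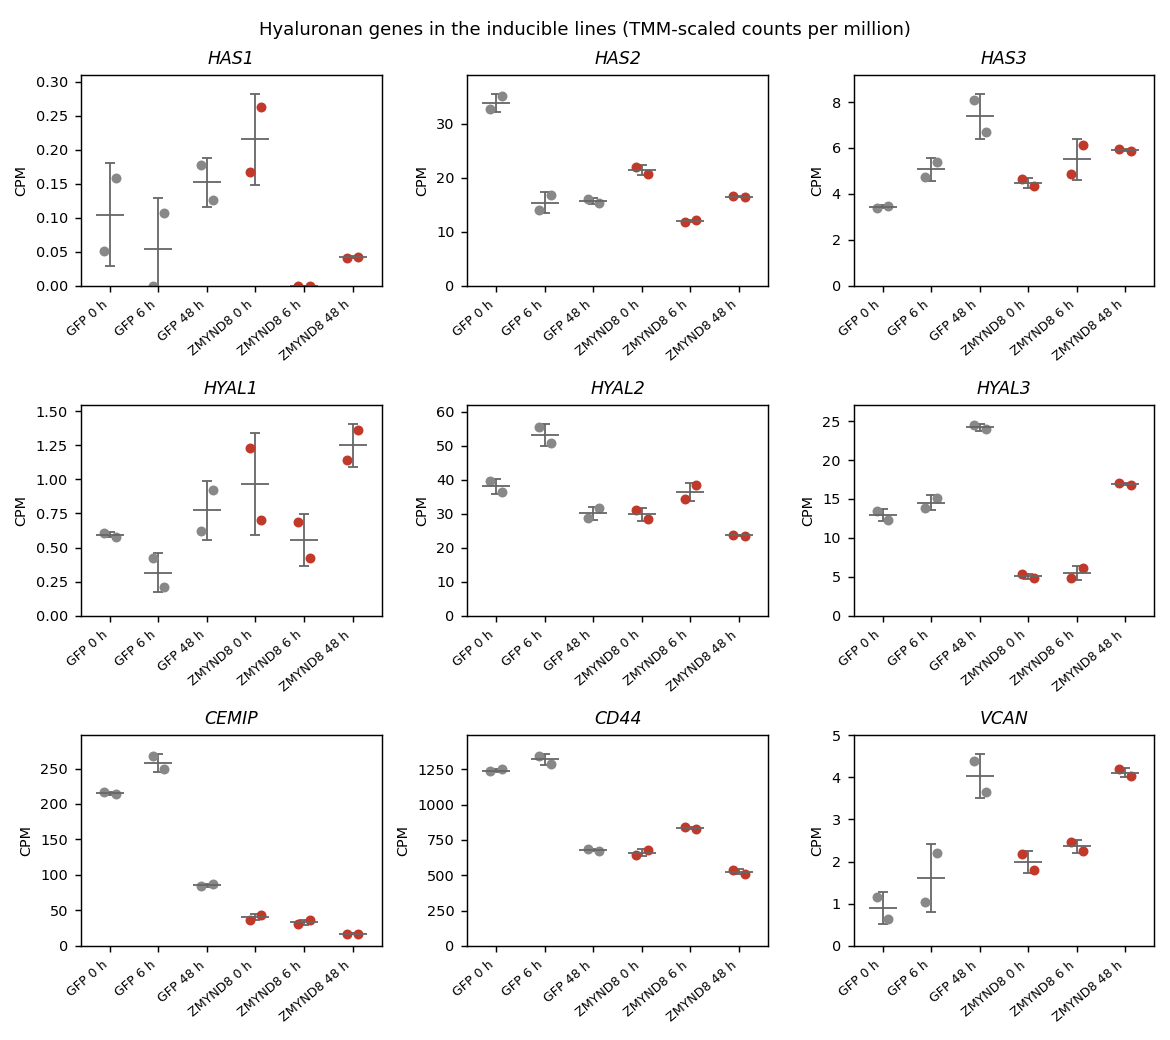
Levels of the 9 genes in the inducible lines, in TMM-scaled CPM (vertical axes, each from 0), for GFP cells (grey) and ZMYND8 cells (red) at 0, 6 and 48 h of doxorubicin. Points are libraries, the wide tick is the mean and the bar the SD (n = 2); CEMIP is lower in every ZMYND8 library than in any GFP library, and HAS2 is higher at 0 h than after doxorubicin in both lines.

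HAS2, a synthase of long hyaluronan chains, fell at 6 h and 48 h in both lines. It stood at 32.7 and 35.1 CPM in untreated GFP cells, at 14.02 and 16.8 CPM after 6 h and at 16.1 and 15.2 CPM after 48 h. In ZMYND8 cells the libraries held 22.0 and 20.7 CPM untreated, 11.8 and 12.1 CPM after 6 h and 16.6 and 16.4 CPM after 48 h. All 4 untreated libraries lay above all 8 treated ones. In GFP cells the log2 fold change was −1.14 (SE 0.0917, adjusted p = 4.4e-11) at 6 h and −1.12 (SE 0.089, adjusted p = 1.6e-11) at 48 h. It was −0.83 (SE 0.0988, adjusted p = 1e-07) at 6 h in ZMYND8 cells and −0.37 (SE 0.0919, adjusted p = 0.001) at 48 h, where total-count scaling gave −0.17 with an adjusted p of 0.12. ZMYND8 cells held less HAS2 than GFP cells at 0 h (log2 fold change −0.67, SE 0.0871, adjusted p = 2e-07) and at 6 h (−0.36, SE 0.104, adjusted p = 0.0044). The latter was −0.23 with an adjusted p of 0.14 without the second GFP library at 6 h. At 48 h the lines differed by 0.08, with a 95% interval of −0.11 to 0.26. The 48 h responses of the lines differed by 0.74 on the log2 scale (SE 0.128, adjusted p = 5.5e-05), in that HAS2 fell less in ZMYND8 cells. At 6 h this difference was 0.31 (SE 0.136, adjusted p = 0.15). HAS2-AS1, which overlaps it on the other strand, had 34 to 91 counts in each of these libraries, against 231 to 666 for HAS2.

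HAS3, a synthase that makes hyaluronan of shorter chains, moved the other way. Its level was 3.40 and 3.48 CPM in untreated GFP cells, 4.72 and 5.41 CPM after 6 h and 8.08 and 6.69 CPM after 48 h. ZMYND8 cells stood at 4.64 and 4.33 CPM untreated, 4.88 and 6.15 CPM after 6 h and 5.94 and 5.87 CPM after 48 h. The treated libraries of each line lay above its untreated ones. HAS3 rose in GFP cells by 0.56 (SE 0.186, adjusted p = 0.015) on the log2 scale at 6 h and by 1.10 (SE 0.175, adjusted p = 4.2e-06) at 48 h. The 6 h call was lost without the first untreated GFP library (adjusted p = 0.068) or the second GFP library at 6 h (adjusted p = 0.11), and under DESeq2 (adjusted p = 0.082). In ZMYND8 cells the 48 h change was 0.40 (SE 0.17, adjusted p = 0.044), a call lost when any 1 of the 4 libraries was left out, with adjusted p-values of 0.09 to 0.2, under DESeq2 (0.2) and with no filter (0.14). The lines' 48 h responses differed by −0.70 (SE 0.246, adjusted p = 0.033), and this call was lost in 7 of 8 fits with 1 library left out, with adjusted p-values of 0.052 to 0.15, under DESeq2 (0.13) and with no filter (0.057). Between the lines at the same time, HAS3 was not called at 0, 6 or 48 h, with approximate 95% intervals of 0.01 to 0.75, −0.22 to 0.46 and −0.63 to −0.01. Those at 0 h and 48 h exclude 0 only through their normal approximation, since the quasi-likelihood test gave unadjusted p-values of 0.054 and 0.053. HAS1, the synthase of least abundance here, had at most 6 counts in any of the 12 libraries, and no fold change is given for it.

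Per kilobase of exon, HAS2 stood above HAS3 in all 12 inducible libraries. The ratio of HAS3 to HAS2, each as CPM per kilobase, was 0.0847 and 0.0808 in untreated GFP cells and 0.410 and 0.358 after 48 h. ZMYND8 cells had 0.172 and 0.170 untreated and 0.293 and 0.292 after 48 h. The share of HAS3 was thus higher after doxorubicin in both lines, and the untreated lines already differed. These ratios are a description of the levels given above and were not tested. In the control libraries of the transient series the ratio was 3.15 and 3.69, the other way round. There HAS3 was at 7.32 ± 0.0806 CPM per kilobase (SD, n = 2), against 0.661 ± 0.0115 in untreated GFP cells. The tables were normalized separately and the transient counts did not separate strands, and the part of CHTF8 and DERPC reads in the transient HAS3 value was not tested.

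**Figure D2:**
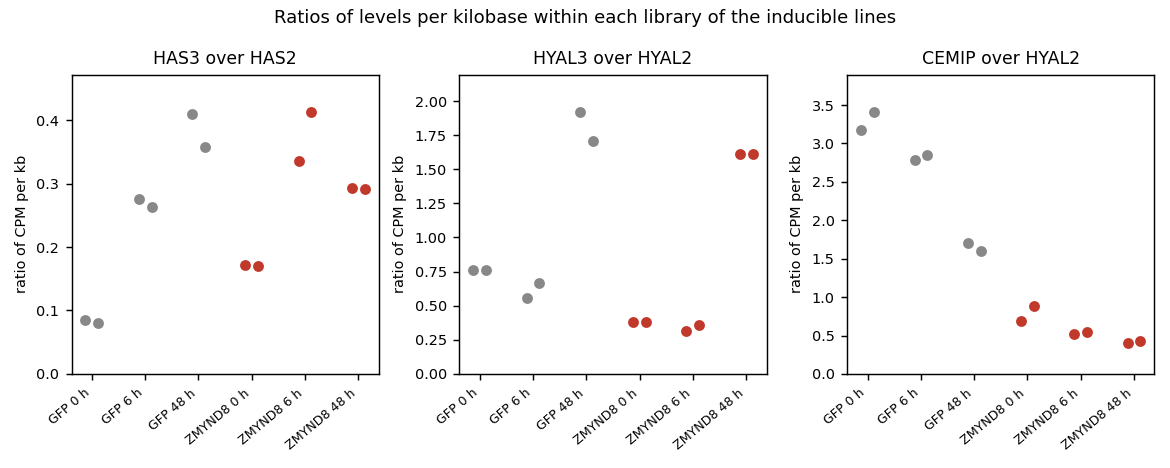
Ratios of levels per kilobase of exon (vertical axes, from 0) within each library of the inducible lines, GFP cells in grey and ZMYND8 cells in red, each point 1 library. HAS3 over HAS2 is lowest in untreated GFP cells, HYAL3 over HYAL2 is highest at 48 h in both lines, and CEMIP over HYAL2 is lower in every ZMYND8 library than in any GFP library.

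Among the enzymes of breakdown, HYAL2, a membrane-anchored hyaluronidase that cuts long chains, rose early and fell later. GFP cells held 39.5 and 36.5 CPM untreated, 55.4 and 50.8 CPM after 6 h and 28.7 and 31.6 CPM after 48 h, and the 3 pairs did not overlap. ZMYND8 cells held 31.2 and 28.4 CPM, 34.5 and 38.3 CPM, and 23.8 and 23.5 CPM at the same times, in the same order. The log2 fold change at 6 h was 0.48 (SE 0.0735, adjusted p = 3.5e-06) in GFP cells and 0.29 (SE 0.0782, adjusted p = 0.0035) in ZMYND8 cells. The latter call was lost without the second untreated ZMYND8 library (0.22, adjusted p = 0.075) or the second at 6 h (0.22, adjusted p = 0.072). At 48 h the change was −0.33 (SE 0.0765, adjusted p = 0.00042) in GFP cells and −0.33 (SE 0.0805, adjusted p = 0.00084) in ZMYND8 cells, but with total-count scaling it was −0.09 (adjusted p = 0.31) and −0.13 (adjusted p = 0.17). HYAL2 was lower in ZMYND8 cells by 0.36, 0.55 and 0.35 on the log2 scale at 0, 6 and 48 h (log2 fold changes −0.36, −0.55 and −0.35, adjusted p = 0.00029, 4e-07 and 0.00037).

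HYAL3, a hyaluronidase whose own enzymatic role is little understood, was higher at 48 h in both lines and lower in ZMYND8 cells throughout. It was at 13.4 and 12.3 CPM in untreated GFP cells, 13.8 and 15.2 CPM after 6 h and 24.6 and 23.9 CPM after 48 h. In ZMYND8 cells it was at 5.31 and 4.86 CPM, 4.83 and 6.09 CPM, and 17.04 and 16.8 CPM. At each time both ZMYND8 libraries lay below both GFP libraries, and the 48 h libraries of each line lay above its others. At 6 h it was called in neither line (log2 fold changes 0.17 and 0.11, adjusted p = 0.22 and 0.61). It rose at 48 h by 0.91 (SE 0.0998, adjusted p = 8.2e-09) in GFP cells and by 1.74 (SE 0.119, adjusted p = 8.5e-13) in ZMYND8 cells, a difference of 0.83 (SE 0.158, adjusted p = 0.00019). The log2 fold change of ZMYND8 against GFP cells was −1.35 (SE 0.126, adjusted p = 4.7e-10) at 0 h, −1.41 (SE 0.123, adjusted p = 1.6e-10) at 6 h and −0.52 (SE 0.0939, adjusted p = 2.8e-05) at 48 h. NAA80, which shares part of its exons, had 201 to 362 counts in the GFP libraries and 110 to 206 in the ZMYND8 libraries, against 234 to 569 and 95 to 419 for HYAL3. HYAL1, the hyaluronidase of lysosomes and plasma, had 4 to 32 counts in a library and was called in none of these comparisons.

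CEMIP had the largest difference between the lines of all members. It stood at 216.6 and 214.3 CPM in untreated GFP cells, 267.1 and 249.7 CPM after 6 h and 84.0 and 86.9 CPM after 48 h. In ZMYND8 cells it stood at 37.2 and 43.2 CPM untreated, 30.7 and 35.9 CPM after 6 h and 16.6 and 17.4 CPM after 48 h. Every ZMYND8 library lay below every GFP library, whatever the treatment. ZMYND8 cells held 5.33 times less at 0 h (log2 fold change −2.41, SE 0.0607, adjusted p = 4.2e-22), 7.77 times less at 6 h (−2.96, SE 0.0623, adjusted p = 9.7e-24) and 5.03 times less at 48 h (−2.33, SE 0.0713, adjusted p = 4.5e-20). By the size of the change CEMIP ranked above 94.4%, 95.7% and 96.7% of all genes tested in these comparisons. CEMIP fell after 48 h of doxorubicin in each line, with log2 fold changes of −1.33 (SE 0.0546, adjusted p = 1.2e-17) and −1.25 (SE 0.0794, adjusted p = 1.8e-13) and a difference of 0.08 (95% interval −0.11 to 0.28). At 6 h CEMIP rose in GFP cells by 0.26 (SE 0.051, adjusted p = 9.8e-05), while its log2 fold change in ZMYND8 cells was −0.28 (SE 0.0735, adjusted p = 0.0027), a difference of −0.54 (SE 0.0894, adjusted p = 0.00011). The 6 h call in ZMYND8 cells was lost without the second untreated library (−0.16, adjusted p = 0.16) or the first at 6 h (−0.17, adjusted p = 0.12), and the difference between the lines kept its call with each library left out. CEMIP2, a related cell surface hyaluronidase, stood at 87.5 and 88.9 CPM in untreated GFP cells and 50.1 and 52.3 CPM in untreated ZMYND8 cells, and it rose at 6 h in GFP cells (0.66, adjusted p = 1.3e-12) and in ZMYND8 cells (1.00, adjusted p = 3.9e-15).

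CD44 was the most abundant member, at 512 to 1344 CPM over the 12 inducible libraries. Untreated GFP cells held 1238 and 1252 CPM, with 1344 and 1291 CPM after 6 h and 686.3 and 675.0 CPM after 48 h. ZMYND8 cells held 642.0 and 678.9 CPM untreated, 842.0 and 829.5 CPM after 6 h and 538.8 and 512.2 CPM after 48 h. At each time both ZMYND8 libraries lay below both GFP libraries, and untreated ZMYND8 cells overlapped the GFP cells at 48 h. The log2 fold change between the lines was −0.91 (SE 0.0391, adjusted p = 4.1e-17) at 0 h, −0.66 (SE 0.0388, adjusted p = 5.4e-14) at 6 h and −0.37 (SE 0.0391, adjusted p = 4.1e-09) at 48 h. CD44 fell at 48 h by 0.87 (log2 fold change −0.87, SE 0.039, adjusted p = 8.3e-17) in GFP cells and less in ZMYND8 cells (−0.33, SE 0.0392, adjusted p = 3.9e-08), and the difference of 0.54 was called (SE 0.0551, adjusted p = 1.8e-08). At 6 h it rose in ZMYND8 cells by 0.34 (SE 0.039, adjusted p = 5.9e-08), its change in GFP cells was 0.08 (SE 0.0385, adjusted p = 0.083), and the responses differed by 0.26 (SE 0.0548, adjusted p = 0.0018). In GFP cells at 6 h DESeq2 gave 0.10 (adjusted p = 0.017) and the fit with no filter 0.13 (adjusted p = 0.0036), so that call depends on the tool and filter. CD44-AS1 on the other strand had 123 to 224 counts in these libraries, against 11497 to 25613 for CD44.

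VCAN was scarce, with 12 to 103 counts in a library, and rose by 48 h in both lines. GFP cells had 1.17 and 0.633 CPM untreated, 1.05 and 2.19 CPM after 6 h and 4.39 and 3.66 CPM after 48 h. ZMYND8 cells had 2.18 and 1.79 CPM, 2.46 and 2.26 CPM, and 4.19 and 4.04 CPM. The 48 h libraries of both lines lay above all others. The log2 fold change at 48 h was 2.15 (SE 0.31, adjusted p = 9.6e-07) in GFP cells and 1.06 (SE 0.27, adjusted p = 0.0014) in ZMYND8 cells, and the difference of −1.09 (SE 0.422, adjusted p = 0.055) was not called. That difference passed with size factors by median of ratios (adjusted p = 0.049), with total-count scaling (adjusted p = 0.046) and without the first untreated GFP library (−1.60, adjusted p = 0.022). Between untreated lines VCAN was higher in ZMYND8 cells (1.12, SE 0.343, adjusted p = 0.0063), which was 0.76 with an adjusted p of 0.11 without the second untreated GFP library. The lines did not differ past the threshold at 6 h (0.54, SE 0.305, adjusted p = 0.14) or at 48 h (0.03, 95% interval −0.45 to 0.51). At 6 h against 0 h in GFP cells it was at 0.84 (SE 0.356, adjusted p = 0.055), and it passed the threshold without the first untreated library (1.35, adjusted p = 0.021) or without the first at 6 h (1.28, adjusted p = 0.0051). Without the second GFP library at 6 h the difference between the lines there passed as well (1.17, adjusted p = 0.01).

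**Figure D3:**
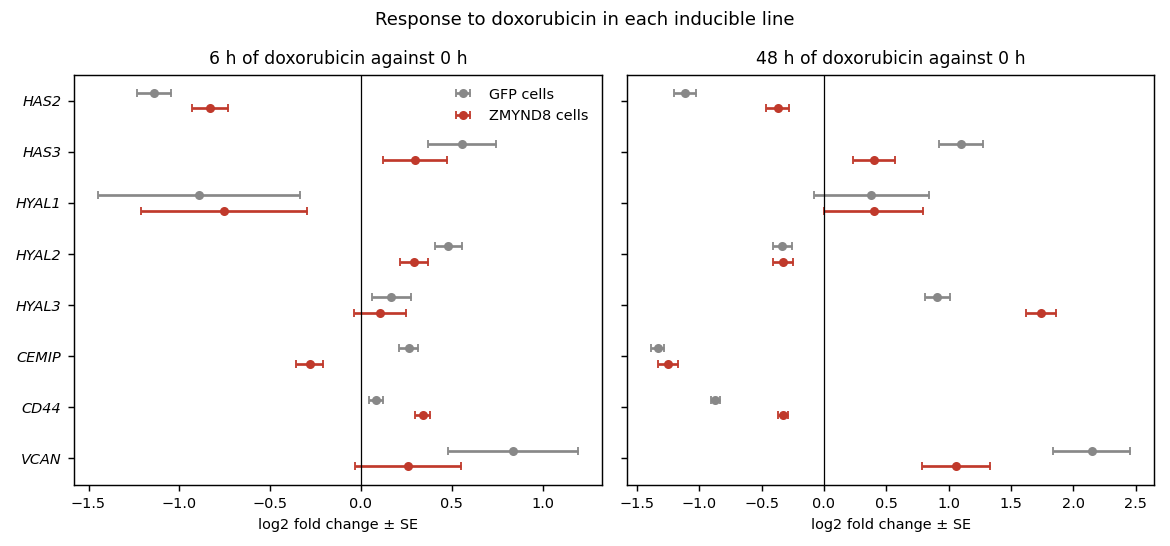
Response to doxorubicin of the 8 tested genes in GFP cells (grey) and ZMYND8 cells (red), as the log2 fold change against 0 h with its standard error (horizontal axes), after 6 h (left) and 48 h (right). At 48 h HAS2 and CD44 fell less and HYAL3 rose more in ZMYND8 cells than in GFP cells, while CEMIP and HYAL2 overlap between the lines.

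The lines themselves differed at many genes. Of the 8 tested members, 6 were called between untreated ZMYND8 and GFP cells (58.3% of all genes), of which VCAN was higher and HAS2, HYAL2, HYAL3, CEMIP and CD44 were lower. Of all genes 28.7% were higher and 29.5% lower there. At 6 h 5 were called (55.5% of all genes in either direction), all lower in ZMYND8 cells, where 26.6% of all genes were lower. At 48 h 4 were called (60.0% of all genes in either direction), again all lower, where 31.6% of all genes were lower. The median log2 fold change of the 8 was −0.51, −0.45 and −0.34 at 0, 6 and 48 h, against 0.00, 0.00 and −0.04 over all genes tested. The response to doxorubicin differed between the lines for 2 members at 6 h (13.4% of all genes) and for 4 at 48 h (28.6% of all genes). Markers of other cell types moved with the line. The 7 markers COL1A1, LUM, DCN, PDGFRB, PTPRC, PECAM1 and CDH5 summed to 23.7 to 45.9 CPM in GFP cells and to 9.76 to 16.6 CPM in ZMYND8 cells, with LUM and CDH5 at no more than 0.4 CPM in all 12 libraries. Of the 5 tested, 4, 5 and 4 were lower in ZMYND8 cells at 0, 6 and 48 h, where 29.5%, 26.6% and 31.6% of all genes were lower. These 5 include DCN, at no more than 0.638 CPM, and PTPRC, with a median of 0.424 CPM, so the count is a description. The part of the markers in the differences between the lines was not tested.

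For the transient libraries HAS2 is given first, and only as a description. It held 52 and 48 counts in the control libraries, 14 and 40 after doxorubicin and 4 and 7 under the ZMYND8 label, or 9.92 and 8.35 CPM, 2.43 and 1.53 CPM, and 0.676 and 1.15 CPM. The 4 treated libraries lay below both controls. The 2 treated conditions did not overlap, but their closest libraries, at 1.53 and 1.15 CPM, are the near-identical pair named above. These 2 libraries held 40 and 7 HAS2 counts at unlike depth. The fitted log2 fold change against control was −2.30 with doxorubicin and −3.30 under the ZMYND8 label, given without a test since this fall was known when the genes were chosen. It was −1.90 without the second doxorubicin library, −2.98 without the first labelled library and −3.75 without the second. The fit put HAS2 2 times lower under the ZMYND8 label than with doxorubicin alone (SE 0.526 on the log2 scale). The log2 value was −1.40 without the second doxorubicin library and −0.68 without the first labelled library. No difference between the treated conditions is read from these values. With all counts of HAS2-AS1 on the other strand added, not only those of shared bases, the values against control were −2.07 and −2.90. The label against the drug alone was then at −0.83.

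Of the 6 tested members other than HAS2, none was called against control, either with doxorubicin (5.13% of all 15697 genes were called) or under the ZMYND8 label (6.82%). Both comparisons use the same control libraries. CEMIP was at 69.5 and 62.5 CPM in control cells, 36.5 and 42.6 CPM with doxorubicin and 32.6 and 45.3 CPM under the ZMYND8 label, with all treated libraries below both controls. Its log2 fold changes of −0.73 (SE 0.225, adjusted p = 0.084) and −0.76 (SE 0.228, adjusted p = 0.069) did not pass the threshold. HYAL3 was at 7.44 and 7.83 CPM, 15.6 and 12.4 CPM, and 19.1 and 12.5 CPM, again without overlap with control. Its values of 0.86 (SE 0.306, adjusted p = 0.13) and 1.05 (SE 0.311, adjusted p = 0.067) missed the threshold too. With 1 library left out, CEMIP was at −0.64 to −0.85 with doxorubicin and −0.55 to −1.03 under the label. HYAL3 was then at 0.70 to 1.03 and 0.70 to 1.30. Both passed in edgeR with no filter on low counts under the ZMYND8 label (adjusted p = 0.044 for CEMIP and 0.048 for HYAL3). Under that label CEMIP also passed with DESeq2 (adjusted p = 0.044) and HYAL3 with total-count scaling in edgeR (adjusted p = 0.039). With the counts of MESD and the other genes that overlap CEMIP on the other strand added, the CEMIP values were −0.42 and −0.37. The whole count of each gene was added, although MESD shares only 224 exon bases with CEMIP. These values are therefore not a correction for strand. CD44 was at 597.4 and 503.9 CPM in control, 535.0 and 426.8 CPM with doxorubicin and 526.7 and 420.2 CPM under the label, and its groups overlapped (log2 fold changes −0.20 and −0.22, adjusted p = 0.66 and 0.6). HAS3 was at 36.1 to 43.6 CPM, HYAL2 at 28.7 to 42.4 CPM and HYAL1 at 1.64 to 2.67 CPM over the 6 libraries, none of them called. VCAN had 0 and 1 counts in control, 3 and 27 with doxorubicin and 5 and 8 under the label, with totals that differ in depth, and no fold is given.

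No gene was called between the doxorubicin libraries and those labelled ZMYND8 plus doxorubicin (0% of 15697 in edgeR's quasi-likelihood test, with 54 genes at an unadjusted p under 0.05), nor any member by DESeq2. CEMIP and CD44 differed there by −0.03 and −0.02, with 95% intervals of −0.47 to 0.42 and −0.46 to 0.41 on the log2 scale. These libraries include the near-identical pair named above. The 2 libraries of a condition differed by a chi-square of 17.7 (doxorubicin) and 10.7 (ZMYND8 label) per degree of freedom, against 1.39 to 15.3 between the conditions. This measure grows with depth, and both 17.7 and 15.3 involve the second doxorubicin library, which held the most counts. With a spread within conditions as large as that between them, the absence of calls cannot show that the conditions are alike.

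**Figure D4:**
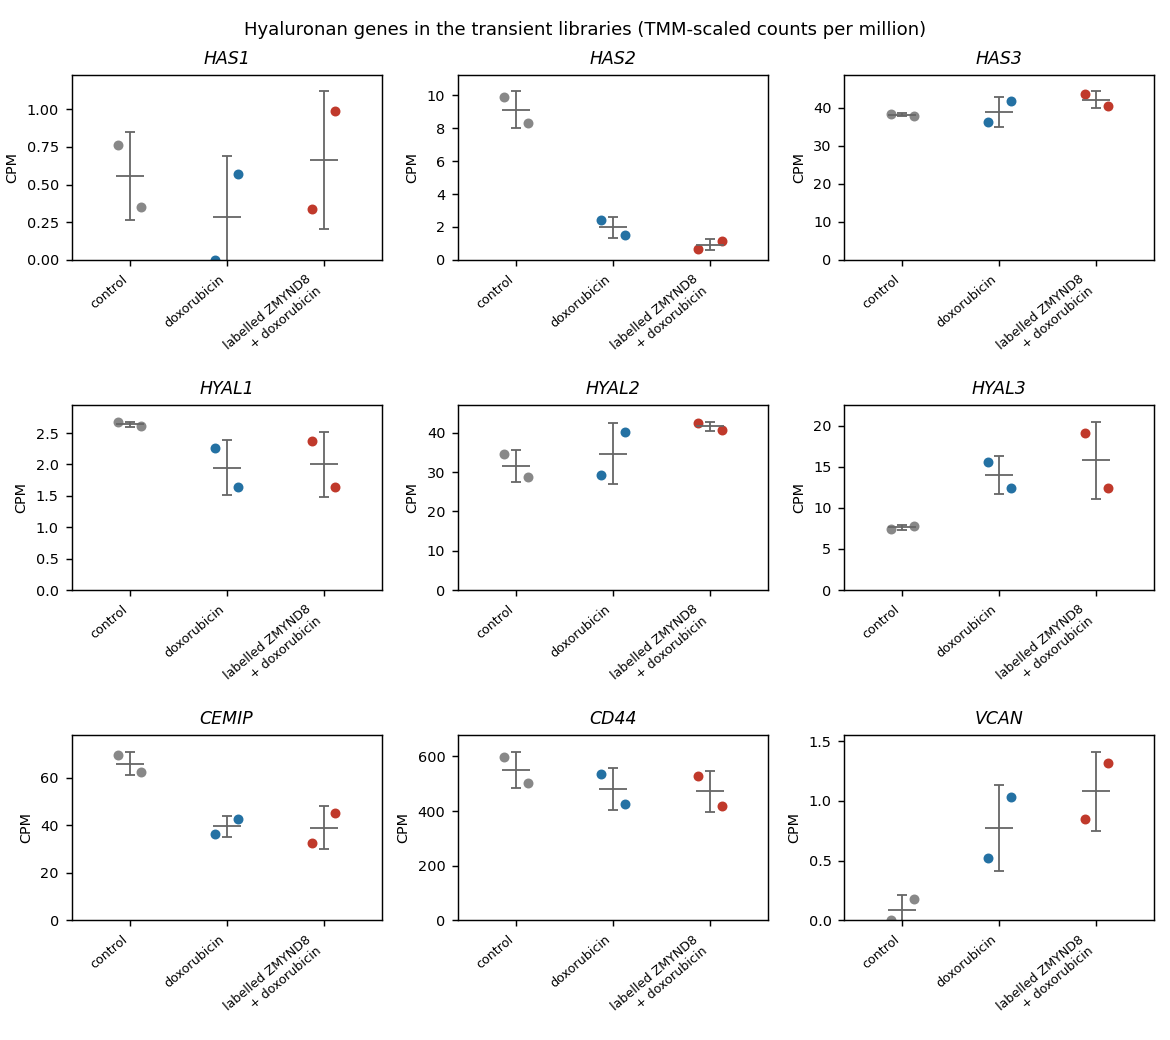
Levels of the 9 genes in the transient libraries, in TMM-scaled CPM (vertical axes, each from 0), for control (grey), doxorubicin for 48 h (blue) and libraries labelled ZMYND8 plus doxorubicin (red). Points are libraries, the wide tick is the mean and the bar the SD (n = 2); HAS2 and CEMIP are lower and HYAL3 is higher in all 4 treated libraries than in both controls.

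Other genes of the pathway were followed in lists of precursor enzymes, other degrading enzymes, other receptors, other binding proteins and partners, 49 genes in all. The 8 genes of the precursor list were all tested. They include UXS1, which uses a precursor rather than makes it, so the list's counts and medians give no direction of precursor supply. UXS1 is among those that rose at 6 h in GFP cells (log2 fold change 0.17). It is also among those that fell at 48 h in GFP cells (−0.65) and in ZMYND8 cells (−0.82). After 6 h in GFP cells 5 rose and 1 fell, where 22.1% of all genes rose and 25.8% fell. GNPNAT1, an enzyme of UDP-GlcNAc synthesis, went from 81.0 and 80.3 CPM to 172 and 170.8 CPM (log2 fold change 1.09, adjusted p = 5.6e-17). By 48 h in ZMYND8 cells 1 rose and 6 fell, with a median of −0.31 against 0.05 over all genes tested, whereas in GFP cells 3 rose and 3 fell (median −0.01 against 0.03). At 48 h 31.6% of all genes rose and 30.8% fell in ZMYND8 cells, and 32.4% rose and 31.8% fell in GFP cells. The 48 h responses of the lines differed for 4 of the 8 (28.6% of all genes), with the lower change in ZMYND8 cells for each. UXS1, which converts UDP-glucuronic acid to UDP-xylose and so takes it from hyaluronan synthesis, fell in the transient libraries with doxorubicin (−0.95, adjusted p = 0.022) and under the ZMYND8 label (−1.10, adjusted p = 0.011). Of the 4 other degrading enzymes tested, 1 rose and 3 fell at 48 h in each line, beside the same shares of all genes, with medians of −0.31 in GFP cells and −0.19 in ZMYND8 cells.

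TLR2, a pattern receptor that also senses hyaluronan fragments, differed most among the 6 other receptors tested. It had 256 and 264 counts in untreated GFP cells and 20 and 17 in untreated ZMYND8 cells. It was lower in ZMYND8 cells at 0, 6 and 48 h, with log2 fold changes of −3.88, −3.39 and −2.96 (adjusted p = 2.6e-15, 3.3e-13 and 7.3e-14). TLR4, a receptor of the same family, was at 104.8 and 100.4 CPM in untreated GFP cells and 43.6 and 45.4 CPM in untreated ZMYND8 cells (−1.20, adjusted p = 3.9e-17), and its 48 h responses differed by 1.08 (adjusted p = 7.3e-12). Between the lines 3, 4 and 4 of the 6 receptors were lower at 0, 6 and 48 h and none was higher, with medians of −0.73, −0.52 and −0.22, while 29.5%, 26.6% and 31.6% of all genes were lower. STAB2, a clearance receptor of hyaluronan in liver endothelium, had 2 and 0 counts in untreated and 18 and 14 in GFP cells at 48 h, and 0 and 1 against 14 and 14 in ZMYND8 cells.

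Of 14 other hyaluronan-binding proteins 8 were tested. At 48 h 7 rose in each line and none fell, but some of these genes were at or near 0 counts in untreated cells and passed the filter through the 48 h libraries, so the count is a description. ITIH2, a heavy chain that is transferred to hyaluronan, had 0 counts in both untreated libraries of either line, with 18 and 21 counts at 48 h in GFP cells (at least 5.42-fold higher, against a floor of 3 counts per library) and 11 and 7 in ZMYND8 cells (at least 2.49-fold higher). ITIH5, of the same family, had 0 and 0 against 19 and 7 counts in ZMYND8 cells (at least 3.58-fold higher). HAPLN1, a link protein, went from 2 and 1 to 31 and 27 counts in GFP cells, and NCAN, a brain proteoglycan, from 0 and 1 to 14 and 10 in GFP cells and from 0 and 1 to 7 and 11 in ZMYND8 cells. The median of the 8 was 3.33 in GFP cells and 2.52 in ZMYND8 cells, or 2.75 and 1.79 with genes at 0 counts set to their bound. PTX3, a pentraxin that cross-links hyaluronan matrices, was lower in ZMYND8 cells at 0 h and 6 h (−1.29 and −1.42, adjusted p = 1e-17 and 1.4e-19), as was HAPLN3 (−1.57 and −1.09, adjusted p = 4.7e-09 and 4.4e-07). The 48 h responses of the lines differed for both, by 1.51 for PTX3 and by 1.42 for HAPLN3 (adjusted p = 7.7e-15 and 7.3e-06). ITIH3 was lower in ZMYND8 cells at 48 h, with 8 and 5 against 32 and 29 counts, and BCAN had 6 and 5 counts at 6 h in ZMYND8 cells after 12 and 15 untreated, just at the threshold (−1.23, adjusted p = 0.05).

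Partners of CD44 and proteases that act on it or on versican made up 14 genes, of which 13 were tested. MMP14, a membrane protease that cuts CD44, was at 907.6 and 905.5 CPM in untreated GFP cells and 343.4 and 346.1 CPM in untreated ZMYND8 cells (−1.40, adjusted p = 8e-20), and it fell by 48 h in both lines, to 313.5 and 295.1 CPM in GFP cells (−1.57, adjusted p = 5.6e-21) and to 96.3 and 95.9 CPM in ZMYND8 cells (−1.84, adjusted p = 1.6e-21). ADAM10, another sheddase of CD44, fell at 48 h in GFP cells (−1.63, adjusted p = 8.3e-22) and in ZMYND8 cells (−1.49, adjusted p = 2e-20). SPP1 (osteopontin), a secreted ligand of CD44, had 3 and 4 counts in untreated GFP cells and 50 and 83 in ZMYND8 cells, and was higher in the latter at each time (4.11, 3.76 and 2.29, adjusted p = 1.3e-07, 5e-06 and 0.00052). ADAMTS1, which cleaves versican, was at 2.38 and 3.85 CPM in untreated GFP cells and 23.0 and 24.0 CPM in ZMYND8 cells (2.92, adjusted p = 1.2e-15), rose at 6 h in both lines (1.63 and 1.07) and responded differently by 48 h (−1.55, adjusted p = 1.9e-06). ADAMTS9, of the same group, was higher in ZMYND8 cells at 6 h (1.70, adjusted p = 4.2e-11). ESRP1, a splicing factor that sets which CD44 exons are used, had 4 and 1 counts in untreated and 24 and 13 in GFP cells at 48 h, and 1 and 4 against 23 and 13 in ZMYND8 cells. ADAMTS4 had 1 and 1 counts before and 12 and 17 after 48 h in GFP cells, and 0 and 0 before and 5 and 1 after in ZMYND8 cells. Over the list, 6 rose and 5 fell at 48 h in GFP cells (median 0.24) and 4 rose and 9 fell in ZMYND8 cells (median −0.48), beside 32.4% and 31.8% of all genes in GFP cells and 31.6% and 30.8% in ZMYND8 cells. ESRP1 and ADAMTS4, near 0 counts untreated, are among those that rose in either line and passed the filter through the 48 h libraries.

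Some genes followed the members closely over the 12 inducible libraries. Among 12836 genes, the highest Pearson correlation of log2 CPM with HAS2 was that of TSC22D3 (r = 0.982), followed by XRN1 (0.970) and VPS13D (0.964). For CD44 the closest were RPL15 (0.992), APMAP (0.990) and STX16 (0.988), and for CEMIP they were ADAMTS12 (0.996), DAP (0.995) and LPCAT2 (0.991). Among the members CD44 correlated with HYAL2 at 0.913 and with CEMIP at 0.894, HAS3 with VCAN at 0.858, and HAS2 with HAS3 at −0.721. These values describe 12 libraries of 6 conditions that share lines and treatments.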

How the data were processed

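mRNA of 18 MDA-MB-231 libraries was analysed, 2 in each of 9 conditions. The deposited values are raw read counts per gene. Per the file headers, the authors counted paired reads over exons with featureCounts 1.6.4 in its reverse-stranded mode against GENCODE release 31 on hg38, and reads that fit several genes were left out. The submitters' processing notes name Trim Galore, HISAT2 and DESeq2, while the study's methods name other tools for alignment and testing, so the aligner is uncertain. Groups came from the sample labels. The study calls the 2 inducible libraries of a condition biological replicates without saying what separates them, and the transient ones carry only replicate numbers. The p-values therefore measure the spread between these libraries, which may be technical in the transient ones. Libraries of the same condition differed by a chi-square of 10.7 to 22.7 per degree of freedom in the transient series and of 2.19 to 5.21 in the inducible one.

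The transient and inducible tables were normalized and fitted separately, with TMM factors, filterByExpr (minimum count 10) and the quasi-likelihood test of edgeR 4.0.16 in R 4.3.3, with 1 mean per condition. Adjusted p-values (Benjamini-Hochberg) cover all genes tested in a table, with a threshold of 0.05. Intervals are at 95% by a normal approximation to the SE, which makes them narrower than the quasi-likelihood test allows for. Differences between the lines' responses are interaction terms of that fit. With 2 libraries a condition, an exact two-sided permutation test could not go below p = 0.333 and was not used. CPM is the count scaled to a common library total with TMM factors, and levels per kilobase divide it by the merged exon length. The fitting was tested on simulated data. Alternatives were median-of-ratios and total-count scaling, no filter, DESeq2 1.42.0, a replicate block, the study's own criterion, each library left out, and overlapping genes added. Counting error depends on depth, which was lowest in the transient libraries.

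The members and lists were chosen with earlier results of these data known. All members are named in each comparison. A gene of another list is named where it was called with an absolute log2 fold change of at least 1, at most 3 per list and comparison, and for 3 members the 3 genes of highest correlation are named. Promoter windows are from RefSeq (GRCh38.p14).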

Additional observations from a re-analysis of the deposited data

Results flagged for a closer look

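The responses of GFP and ZMYND8 cells to doxorubicin differed for some genes by a direct test of the difference (edgeR interaction term, log2 scale, ZMYND8 minus GFP, 2 libraries per condition). At 6 h these were CEMIP (−0.54, adjusted p = 0.00011), with opposite directions in the lines, and CD44 (0.26, adjusted p = 0.0018). At 48 h they were HAS2 (0.74, adjusted p = 5.5e-05), HAS3 (−0.70, adjusted p = 0.033), HYAL3 (0.83, adjusted p = 0.00019) and CD44 (0.54, adjusted p = 1.8e-08). For HAS2, HYAL3 and CD44 the lines were closer to each other at 48 h than at 0 h. The HAS3 difference lost its call in 7 of 8 fits with 1 library left out. Each line was measured as 1 line, so the inserted cassette and other differences between the lines cannot be told apart.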

How the results depend on the processing

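No value changed sign among those past the threshold. The number of members called stayed within 1.5 times of that reported for every comparison under median-of-ratios scaling. In the transient comparison of the ZMYND8 label with control, no member was called in the main fit with HAS2 left aside. HYAL3 passed there with total-count scaling (edgeR, adjusted p = 0.039) and CEMIP with DESeq2 (adjusted p = 0.044). Both passed in edgeR with no filter (adjusted p = 0.048 and 0.044). HYAL3 also passed under the study's criterion (unadjusted p of at most 0.05 with an absolute log2 fold change of at least 1, or of 1.5 in the inducible lines). Under that criterion the inducible counts became 0 (6 h) and 1 (48 h) in GFP cells, 0 (6 h) and 1 (48 h) in ZMYND8 cells, 1, 1 and 1 between the lines at 0, 6 and 48 h, and 0 and 0 for the differences in response, since it asks for a larger change. Leaving out the second untreated ZMYND8 library moved the 6 h log2 fold changes in ZMYND8 cells to 0.22 for HYAL2 and −0.16 for CEMIP. The cause was not tested. HAS2 is left aside among the members named here against transient control, since its fall there was known when the genes were chosen. The totals that follow include its fits, and nothing is read from its part in them. Over single values, leaving out a library left 395 the same, meaning that a call was kept or that an uncalled value moved by less than its SE. Of the others, 21 lost their call, 4 gained one, and 16 stayed uncalled but moved by at least their SE.

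With the replicate number as a block in edgeR, HYAL3 passed against transient control (adjusted p = 0.041 with doxorubicin and 0.02 under the ZMYND8 label). CEMIP passed there as well (adjusted p = 0.021 and 0.018), with HAS2 left aside. The counts of the other comparisons stayed within 1.5 times of those reported. Deviations of same-numbered libraries correlated at 0.208 to 0.404 over 3 pairs of transient conditions and at −0.0458 to 0.0216 over 15 pairs of inducible ones. With 2 numbers only, and no label that ties them to a shared culture or day, the libraries share only a number.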
